A study of Mus musculus with 12 samples.

Results

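Amino acid transporters of 7 solute carrier families (SLC1, SLC3, SLC6, SLC7, SLC36, SLC38 and SLC43) were followed through knockdown of Sdc1 and exposure to IFNγ in B16 cells, a mouse melanoma line. The genes were chosen by symbol, a family name followed by a number, which gave 63 genes of the 56093 entries counted, and those described in depth were selected on having enough counts in a group. That held for 29 of them, which were tested, and the other 34 are described by their counts. The families were picked with results of these data in view, so their counts describe these libraries. The 12 RNA-seq libraries formed 4 groups of 3. Control cells carried a hairpin against RFP, which mouse cells do not encode, and were unstimulated (shRFP) or given IFNγ at 10 ng/ml for 24 h. Knockdown cells carried a hairpin against Sdc1, the heparan sulfate proteoglycan syndecan-1, and were likewise unstimulated (shSdc1) or given the same dose for the same time. All 4 groups thus carried a hairpin, and the labels describe the cells as transfected. How many hairpin sequences or clones were used was not stated in the sources used here, and off-target action of a hairpin cannot be told apart from the loss of Sdc1.

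Amino acids cross membranes through carriers that take part in exchange, in uptake driven by sodium or protons, or in export from lysosomes. Several SLC7 proteins are light chains that reach the cell surface only when bound to an SLC3 heavy chain, and the pair of Slc3a2 and Slc7a5 imports leucine and other large neutral amino acids in exchange for glutamine. When amino acids run short, uncharged transfer RNA activates the kinase GCN2, translation of the transcription factor ATF4 rises, and ATF4 with a C/EBP partner binds C/EBP-ATF response elements (CARE) in transporter and biosynthesis genes. In tumour cells such carriers feed protein synthesis, mTORC1 signalling and the making of glutathione.

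Promoter sequences show where such an element stands in genes whose levels are given further on. The RefSeq table for GRCm38.p6, with 250 bases before to 50 after each start, held 30 windows for 19 of the 29 genes tested. Slc38a3, Slc7a5 and Slc1a5 were among those without a window. The core TGATGNAA, searched on both strands, was found in 4 of these 30 windows, which belonged to 3 genes, Slc1a4, Slc7a11 and Slc7a7. Windows of Slc7a7 overlap and share a match, which the count of windows includes again. Of all 32851 promoter windows in the table, 3.97% held it. The 160 bases around a start of each of these 3 genes (150 before, 10 after) are printed 5′ to 3′ on the gene's strand with the core, or its reverse complement, in capitals. The printed stretches lie at chr11:20332704-20332863, chr3:50443604-50443763 and chr14:54417935-54418094, all on the minus strand.
Slc1a4: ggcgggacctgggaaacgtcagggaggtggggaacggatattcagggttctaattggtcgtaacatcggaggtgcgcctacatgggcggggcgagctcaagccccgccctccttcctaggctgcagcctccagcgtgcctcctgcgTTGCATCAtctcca
Slc7a11: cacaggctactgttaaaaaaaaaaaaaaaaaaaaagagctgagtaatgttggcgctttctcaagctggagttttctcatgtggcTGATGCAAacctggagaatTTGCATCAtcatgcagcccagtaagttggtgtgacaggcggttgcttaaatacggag
Slc7a7: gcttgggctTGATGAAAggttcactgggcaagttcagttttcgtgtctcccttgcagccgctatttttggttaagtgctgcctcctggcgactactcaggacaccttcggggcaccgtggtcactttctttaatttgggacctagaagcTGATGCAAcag

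With the first base of the transcript counted as 1 and the base before it as -1, the Slc1a4 match ran from -4 to 4. Slc7a11 held one match from -66 to -59 and one in the reverse orientation from -47 to -40. Counted from the printed start, Slc7a7 held matches from -141 to -134 and from -1 to 7. This gene had windows for other starts too, and in 1 of those the core ran from -243 to -236. That window overlaps the printed one, and this is the same stretch of bases as the match from -1 to 7. Slc1a4 and Slc7a11 had the largest falls of the set with IFNγ, while Slc7a7 passed the test in no comparison. Genes with windows but no match of this core differed as well. With IFNγ in control cells Slc6a9 changed by -0.87 and passed, and Slc7a6 by 0.06 and did not pass. With the knockdown in unstimulated cells Slc1a4 (-0.83) passed and Slc7a11 (0.15) did not. Of genes with windows but no match, Slc6a9 (-0.81) and Slc3a2 (-0.48) passed there and Slc7a6 (0.10) did not. A link between the matches and the changes was not tested. The interferon-γ activated site (GAS, TTCNNNGAA, both strands) was found in 3 of the 30 windows (Slc38a9, Slc7a1 and Slc7a11), against 8.3% of all windows. The core of the interferon-stimulated response element (ISRE) was found in 0 of the 30 windows and in 3.44% of all windows. The E-box CACGTG was found in 3 of the 30 windows, for Slc36a1, Slc38a7 and Slc43a1 (7.15% of all windows). The antioxidant response element core TGACNNNGC was found in 8 of the 30 windows, for 6 genes, among them Slc7a1 and Slc6a9 (12.4% of all windows). Overlapping windows of Slc7a6 held the same match, which the count of windows includes again. These are matches of letters in a short window and were not tested for binding.

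Between 14337771 and 21548940 counts were obtained per library, and for 14089 genes changes were tested with edgeR's quasi-likelihood test, with p-values adjusted over all of them by the Benjamini-Hochberg method. Levels are CPM, the TMM-scaled count relative to library size, and a change is a log2 fold change with its standard error. Sdc1 itself stood at 75.4 ± 1.34 CPM in shRFP and 23.7 ± 1.78 in shSdc1, and at 88.5 ± 12.4 and 25.8 ± 1.03 with IFNγ (SD, n = 3). Library shSdc1 replicate 3 stood apart in that ENSMUSG00000119584, an Ensembl gene with no symbol here, took 4.79% of its counts; elsewhere this share was 0.0842 to 0.195%. Without that library, 4 calls on transporters ended and are named below with their gene. The 7 melanocyte markers summed to 17240 to 17290 CPM in shRFP and 12940 to 13370 in shSdc1, and to 16610 to 18170 and 11750 to 13170 with IFNγ. Of these markers 7 were lower in shSdc1 than in shRFP and 6 with IFNγ, led by Pmel (-1.29 and -1.50), against 14.6% and 17.4% of all genes. IFNγ lowered 1 of the 7 in control cells and 4 in knockdown cells, against 14.4% and 13.0% of all genes. The part of the melanocyte markers in the transporter results was not tested. Of 8 leukocyte markers Cd3e, Adgre1 and Itgax were at 0, and the list summed to 0.319 to 0.622 CPM in shRFP, 1.28 to 1.63 in shSdc1, 0.423 to 0.926 in shRFP with IFNγ and 1.67 to 2.04 in shSdc1 with IFNγ. Lyz2, the one leukocyte marker tested, rose with the knockdown by 1.44 ± 0.35 without and 1.24 ± 0.32 with IFNγ (adjusted p = 0.00415 and 0.0051). Of 4 neuron and astrocyte markers Rbfox3 was at 0, and the list summed to 3.52 to 5.93 CPM in shRFP, 2.49 to 3.32 in shSdc1, 9.66 to 11.3 in shRFP with IFNγ and 7.19 to 7.62 in shSdc1 with IFNγ, most of it Gfap. Of 5 fibroblast and endothelial markers Dcn was at 0, and the list summed to 1.87 to 4.19 CPM over the 12 libraries. The part of these markers in the transporter results was not tested. In bulk RNA, fewer cells of a kind and less of a transcript per cell cannot be told apart.

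Of the 29 transporter genes tested, 14 fell and 1 rose with the knockdown in unstimulated cells, against 14.6% lower and 14.0% higher among all genes tested. Under IFNγ the knockdown lowered 10 and raised 5, against 17.4% and 18.9% of all genes. IFNγ lowered 15 and raised 0 in control cells, against 14.4% and 17.2%. In knockdown cells it lowered 11 and raised 1, against 13.0% and 17.5%. Their median log2 fold change was -0.20, -0.09, -0.22 and -0.09 in these 4 comparisons, beside 0.0, 0.02, -0.01 and 0.00 over all genes. The comparisons share groups, and a fall in one is not separate support for a fall in another. Slc1a4, Slc7a5, Slc7a1, Slc7a8, Slc38a2, Slc6a15 and Slc6a17 were lower in all 4 comparisons, and others, named below, passed in none. How many of all genes did either was not counted, so this is a description of single genes. Calls for Slc7a8 and Slc1a4 ended in some alternatives, as given below. Most changes were modest. With a minimum log2 fold change of 1 only the rise of Slc38a3 with the knockdown and the falls of Slc7a11 and Slc1a4 with IFNγ in control cells remained.

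Per exon length, the taurine transporter Slc6a6 had the highest mean level of the set, 114.5 CPM per kilobase of exon (RPKM). It was followed by the glutamine and alanine importer Slc38a2 (75.6 RPKM), the light chain Slc7a5 (63.6 RPKM) and its heavy chain Slc3a2 (56.5 RPKM). Slc38a10 (49.3 RPKM), the arginine and lysine importer Slc7a1 (38.4 RPKM) and Slc38a1 (35.5 RPKM) came next. The lysosomal glutamine exporter Slc38a7 (26.7 RPKM), the glutamine exchanger Slc1a5 (24.1 RPKM) and Slc7a6 (16.3 RPKM) closed the 10 highest. Over the 12 libraries Slc38a2 ran from 60.1 to 92.2 RPKM and Slc7a5 from 39.6 to 100.2, so these neighbours overlapped, as did Slc7a5 and Slc3a2 (46.7 to 76.4 RPKM). Slc6a6, at 92.8 to 135.0 RPKM over the libraries, was the highest in each group, with means of 128.5 RPKM in shRFP, 104.5 in shSdc1, 130.5 in shRFP with IFNγ and 94.3 in shSdc1 with IFNγ. The order below it turned by group. In shRFP Slc7a5 (98.4 RPKM) stood above Slc38a2 (89.1 RPKM), and in shRFP with IFNγ Slc38a10 (52.9 RPKM) stood above Slc7a5 (52.4 RPKM) and Slc3a2 (51.5 RPKM).

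**Figure D1:**
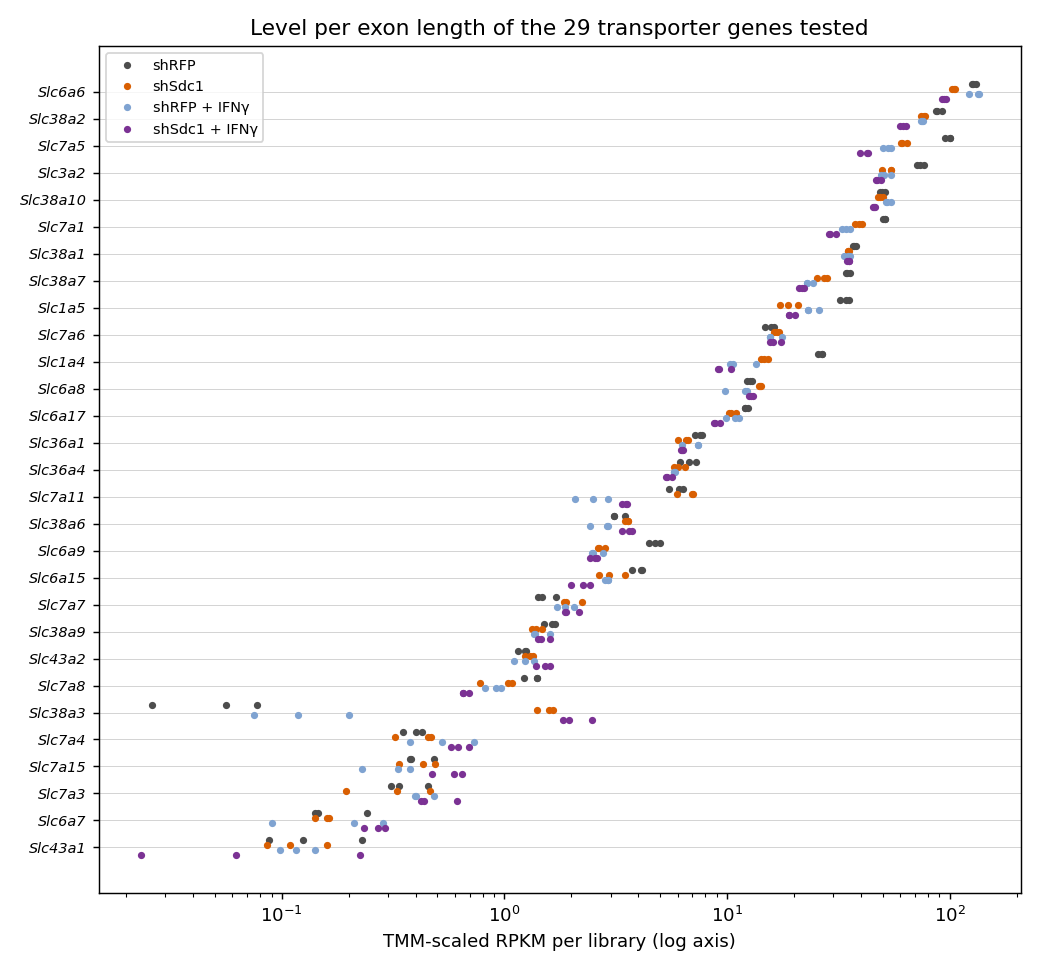
Level per exon length of the 29 transporter genes tested, in TMM-scaled RPKM on a log axis. Each point is 1 library, coloured by group, and genes are ordered by their mean over the 4 groups; Slc6a6 is at the top with 92.8 to 135.0 RPKM, and the points of Slc38a3 split into control and knockdown cells.

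Both partners of the leucine exchanger were lowered by each treatment. Slc3a2 (ENSMUSG00000010095), the heavy chain, measured 261.1, 251.3 and 269.5 CPM in shRFP replicates 1 to 3 and 192.9, 175.7 and 192.6 CPM in shSdc1. Under IFNγ it measured 173.6, 179.1 and 192.6 CPM in control cells and 165.8, 173.0 and 164.9 CPM in knockdown cells. The 3 shRFP libraries lay above the other 9, and the groups with IFNγ stood next to each other without overlap. It fell by 0.48 ± 0.05 with the knockdown (adjusted p = 4.32e-07) and by 0.52 ± 0.05 with IFNγ in control cells (adjusted p = 1.19e-07). Under IFNγ the knockdown difference was -0.11 ± 0.05 and did not pass (adjusted p = 0.0805), except without shRFP with IFNγ replicate 1 (0.0382). IFNγ lowered it, with a log2 fold change of -0.16 ± 0.05 in knockdown cells (adjusted p = 0.0219), a call that ended without shSdc1 replicate 1 or 3 or without shSdc1 with IFNγ replicate 1 or 3 (adjusted p = 0.0702 to 0.0927).

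Slc7a5 (ENSMUSG00000040010), the light chain also called LAT1, measured 352.0, 371.0 and 371.5 CPM in shRFP and 224.2, 225.6 and 238.2 CPM in shSdc1. After IFNγ its levels were 202.0, 195.6 and 185.5 CPM in control cells and 158.3, 146.7 and 160.2 CPM in knockdown cells. The 4 groups did not overlap, and the level was lowest where both treatments were applied. It fell by 0.67 ± 0.05 with the knockdown (adjusted p = 2.18e-09) and by 0.33 ± 0.05 under IFNγ (adjusted p = 2.22e-05). IFNγ lowered it, with log2 fold changes of -0.91 ± 0.05 in control cells and -0.57 ± 0.05 in knockdown cells (adjusted p = 1.09e-11 and 1.76e-08).

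Slc7a11 (ENSMUSG00000027737), the light chain that exchanges extracellular cystine for glutamate and feeds glutathione synthesis, had the largest fall with IFNγ in both cell types. It measured 85.0, 88.3 and 76.4 CPM in shRFP and 82.8, 96.9 and 98.3 CPM in shSdc1. The libraries with IFNγ gave 34.9, 28.9 and 40.8 CPM in control cells and 48.9, 47.3 and 49.5 CPM in knockdown cells. Unstimulated groups overlapped, while under IFNγ every knockdown library lay above every control library. IFNγ lowered it, with a log2 fold change of -1.26 ± 0.09 in control cells (adjusted p = 2.58e-09) and of -0.93 ± 0.09 in knockdown cells (adjusted p = 1.19e-07). The knockdown raised it by 0.48 ± 0.10 under IFNγ (adjusted p = 5.84e-04), whereas the unstimulated difference of 0.15 ± 0.09 did not pass (adjusted p = 0.201). The difference between these effects, 0.33 ± 0.13, did not pass either (adjusted p = 0.109), though it did in 2 alternatives, 1 of them without shRFP with IFNγ replicate 3 (lowest adjusted p = 0.0117).

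The other light chains stood at lower levels or moved less. Slc7a8, the light chain LAT2, measured 6.72 ± 0.50 CPM in shRFP and 4.86 ± 0.83 in shSdc1, and 4.51 ± 0.38 and 3.33 ± 0.12 with IFNγ. Its log2 differences were -0.47 ± 0.15 and -0.44 ± 0.16 for the knockdown without and with IFNγ, and -0.58 ± 0.15 and -0.55 ± 0.16 for IFNγ in control and knockdown cells (adjusted p = 0.0201, 0.0421, 0.00604 and 0.0144). The first call ended with the DESeq2 Wald test and without shRFP replicate 1 or 2 or shSdc1 replicate 3 (adjusted p = 0.0502 to 0.121). The second ended in 10 alternatives, among them leaving out shRFP with IFNγ replicate 2 or 3 or any of the shSdc1 libraries with IFNγ (adjusted p = 0.0527 to 0.126). The fourth ended without shSdc1 replicate 1 or 2 (adjusted p = 0.0583 and 0.0686). Slc7a6, which exchanges cationic for neutral amino acids, stayed between 67.5 and 80.4 CPM over the 12 libraries, and its differences of -0.03 to 0.10 did not pass. Slc7a7, which carries out the same exchange, measured 4.69 to 7.38 CPM and did not pass, with a knockdown difference of 0.37 ± 0.14 in unstimulated cells (adjusted p = 0.0523). Of its exon bases 7.0% overlap Oxa1l on the opposite strand, which stood at 47.1 to 56.9 CPM, and the strand setting of the counting is not given in the sources used here. Slc7a15 was near 1 CPM and rose by 0.87 ± 0.29 with the knockdown under IFNγ (adjusted p = 0.0235), a call that ended in 5 alternatives. Of these 3 left out shRFP with IFNγ replicate 2 or shSdc1 with IFNγ replicate 1 or 3 (adjusted p = 0.0645 to 0.127). The second heavy chain, Slc3a1, was not tested.

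Among cationic amino acid carriers, Slc7a1 (ENSMUSG00000041313) supplied nearly all counts. It measured 581.4, 591.0 and 590.2 CPM in shRFP and 431.6, 464.3 and 451.4 CPM in shSdc1. With IFNγ it measured 393.9, 413.2 and 377.3 CPM in control cells and 335.2, 329.9 and 357.5 CPM in knockdown cells. The 4 groups stood in this order from high to low with no overlap. The knockdown lowered it, with log2 fold changes of -0.39 ± 0.04 without and -0.21 ± 0.04 with IFNγ (adjusted p = 8.08e-07 and 6.07e-04), and IFNγ lowered it, with log2 fold changes of -0.57 ± 0.04 and -0.40 ± 0.04 in control and knockdown cells (adjusted p = 2.67e-09 and 5.36e-07). Slc7a3 and the orphan Slc7a4 stood at 0.733 to 3.03 CPM and passed in no comparison. Slc7a2, the arginine carrier known from activated macrophages, had 1 count in each of 2 libraries.

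Of the SLC1 family the exchangers Slc1a5 and Slc1a4 were tested, and both were highest in shRFP. Slc1a5 (ENSMUSG00000001918), or ASCT2, which exchanges glutamine for other neutral amino acids, measured 147.4, 134.7 and 142.8 CPM in shRFP and 72.5, 78.8 and 86.6 CPM in shSdc1. Under IFNγ it measured 96.4, 96.3 and 108.1 CPM in control cells and 79.6, 84.5 and 79.2 CPM in knockdown cells. The ranges of shSdc1 and shSdc1 with IFNγ overlapped, and the control groups stood apart from them and from each other. The knockdown lowered it, with log2 fold changes of -0.84 ± 0.06 without and -0.31 ± 0.06 with IFNγ (adjusted p = 6.48e-09 and 8.73e-04). IFNγ lowered it, with a log2 fold change of -0.50 ± 0.06 in control cells (adjusted p = 4.62e-06), and the difference in knockdown cells was 0.03 ± 0.06 (adjusted p = 0.751).

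Slc1a4 (ENSMUSG00000020142), or ASCT1, which exchanges alanine, serine, cysteine and threonine, measured 104.4, 104.6 and 100.3 CPM in shRFP and 57.7, 60.2 and 56.0 CPM in shSdc1. After IFNγ its levels were 40.6, 41.7 and 53.0 CPM in control cells and 36.1, 35.9 and 40.9 CPM in knockdown cells. Replicate 3 was the highest library in both groups with IFNγ, and the ranges of those groups overlapped. Its changes were -0.83 ± 0.07 with the knockdown and -1.20 ± 0.08 with IFNγ in control cells (adjusted p = 8.06e-08 and 3.43e-10). IFNγ in knockdown cells lowered it, with a log2 fold change of -0.63 ± 0.08 (adjusted p = 5.41e-06). Under IFNγ the knockdown lowered it, with a log2 fold change of -0.26 ± 0.08 (adjusted p = 0.0161), which ended without shRFP with IFNγ replicate 3 or without shSdc1 with IFNγ replicate 1 or 2 (adjusted p = 0.0588 to 0.096). The glutamate transporter Slc1a3 had 0 counts in every library, and the other glutamate carriers, Slc1a1 and Slc1a2 among them, had 6 counts or fewer in all.

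Of the SLC38 family of sodium-coupled neutral amino acid transporters 7 of 11 were tested. Slc38a3 (ENSMUSG00000010064), a glutamine, histidine and asparagine carrier best known from liver, kidney and astrocytes, measured 0.410, 0.297 and 0.138 CPM in shRFP and 8.38, 8.70 and 7.39 CPM in shSdc1. The libraries with IFNγ gave 0.397, 0.623 and 1.06 CPM in control cells and 13.1, 9.69 and 10.3 CPM in knockdown cells. Behind these stood 9, 5 and 2 counts in shRFP and 138, 139 and 121 in shSdc1, and every knockdown library was above every control library. The difference was 4.73 ± 0.28 without and 3.996 ± 0.24 with IFNγ (adjusted p = 3.12e-10 and 3.25e-10). Slc38a3 passed the filter on low counts only through its knockdown libraries, and its absolute level was low, the 24th per exon length in the set. IFNγ raised it by 0.44 ± 0.16 in knockdown cells (adjusted p = 0.0495), a call that ended in 11 alternatives, 6 of which left out a library: shRFP replicate 2, shSdc1 replicate 1, 2 or 3, or shSdc1 with IFNγ replicate 1 or 3 (adjusted p = 0.0549 to 0.273). In control cells the difference of 1.17 ± 0.45 did not pass (adjusted p = 0.0566) but passed in 5 alternatives, 3 of which left out shRFP replicate 1, shRFP with IFNγ replicate 1 or shSdc1 with IFNγ replicate 1 (lowest adjusted p = 0.0242).

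**Figure D2:**
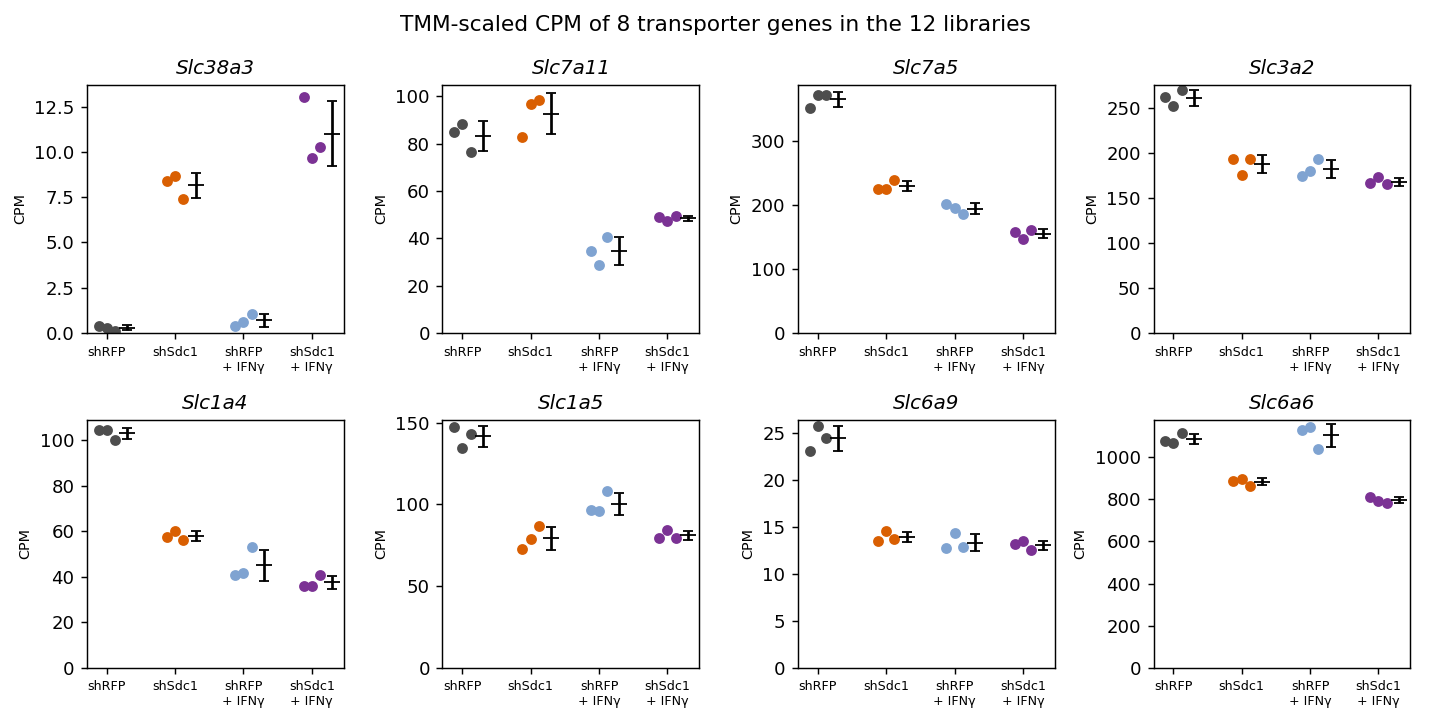
Level in CPM (vertical axis, from 0) of 8 transporter genes in each library, by group, with 1 point per library and the mean ± SD of the group beside them. Slc38a3 is near 0 in both control groups and at 7.39 CPM or more in both knockdown groups, while the highest group is shRFP for Slc7a5, Slc3a2, Slc1a4, Slc1a5 and Slc6a9.

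The abundant members of the family moved less. Slc38a2 (ENSMUSG00000022462), or SNAT2, an importer that cells induce when amino acids are scarce, measured 775.5, 815.1 and 771.8 CPM in shRFP and 654.3, 685.3 and 677.8 CPM in shSdc1. With IFNγ it measured 658.4, 663.4 and 673.1 CPM in control cells and 531.5, 544.0 and 564.8 CPM in knockdown cells. It was highest in shRFP and lowest with both treatments, and the groups with 1 treatment overlapped. The knockdown lowered it, with log2 fold changes of -0.23 ± 0.04 and -0.28 ± 0.04 without and with IFNγ (adjusted p = 6.20e-05 and 4.32e-06). IFNγ lowered it, with log2 fold changes of -0.24 ± 0.04 and -0.30 ± 0.04 in control and knockdown cells (adjusted p = 2.99e-05 and 2.27e-06).

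Slc38a7, which exports glutamine from lysosomes, measured 147.6, 141.5 and 143.6 CPM in shRFP and 104.8, 116.8 and 112.8 CPM in shSdc1. Under IFNγ it measured 95.1, 100.9 and 94.7 CPM in control cells and 90.0, 86.9 and 91.7 CPM in knockdown cells. It fell by 0.37 ± 0.05 with the knockdown and by 0.57 ± 0.05 with IFNγ in control cells (adjusted p = 7.13e-06 and 2.02e-08). IFNγ also lowered it in knockdown cells, at -0.32 ± 0.05 (adjusted p = 5.27e-05), and the knockdown difference under IFNγ, -0.11 ± 0.05, did not pass (adjusted p = 0.0757).

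Slc38a1, the glutamine importer SNAT1, ranged from 577.8 to 653.4 CPM. Its change of -0.09 ± 0.03 with the knockdown (adjusted p = 0.0499) ended in 16 alternatives, 10 of which left out a library (all but shRFP with IFNγ replicates 2 and 3, adjusted p = 0.0527 to 0.175). Its change of -0.11 ± 0.03 with IFNγ in control cells (adjusted p = 0.0191) ended in 4, including those without shRFP replicate 1 or shRFP with IFNγ replicate 3 (adjusted p = 0.0757 and 0.0878). Slc38a9, the lysosomal arginine sensor that signals to mTORC1, measured 22.3 to 28.2 CPM and passed in no comparison. Its knockdown difference of -0.20 ± 0.08 had an adjusted p of 0.0598 and passed in 3 alternatives, 2 of them without shRFP replicate 1 or shRFP with IFNγ replicate 1 (lowest 0.0396). Slc38a10 fell by 0.21 ± 0.04 with the knockdown under IFNγ, from 339.5 ± 9.37 to 294.3 ± 2.00 CPM (adjusted p = 3.17e-04). Slc38a6 stood at 21.4 ± 2.18 CPM in shRFP with IFNγ and 27.9 ± 1.53 in shSdc1 with IFNγ, a rise of 0.38 ± 0.08 with the knockdown (adjusted p = 7.66e-04). Its change of -0.25 ± 0.08 with IFNγ in control cells (adjusted p = 0.0211) ended without shRFP replicate 1 or shRFP with IFNγ replicate 2 (adjusted p = 0.128 and 0.146).

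Of the 21 SLC6 carriers, a family that also takes up neurotransmitters and osmolytes, 6 were tested. Slc6a9 (ENSMUSG00000028542), the glycine transporter GLYT1, measured 23.1, 25.7 and 24.5 CPM in shRFP and 13.5, 14.5 and 13.7 CPM in shSdc1. After IFNγ its levels were 12.7, 14.3 and 12.8 CPM in control cells and 13.15, 13.5 and 12.5 CPM in knockdown cells. The 3 shRFP libraries lay above all others, which stood between 12.5 and 14.5 CPM. It fell by 0.81 ± 0.08 with the knockdown and by 0.87 ± 0.08 with IFNγ in control cells (adjusted p = 2.93e-07 and 9.75e-08). With the other treatment already applied, the differences were -0.03 ± 0.09 for the knockdown and -0.09 ± 0.09 for IFNγ (adjusted p = 0.846 and 0.472). Of its exon bases 27.8% overlap Ccdc24 on the opposite strand, which stood at or below 0.274 CPM.

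Slc6a6 (ENSMUSG00000030096), the taurine transporter, followed the hairpin and hardly moved with IFNγ in control cells. It measured 1078, 1068 and 1115 CPM in shRFP and 889.3, 896.7 and 865.7 CPM in shSdc1. The libraries with IFNγ gave 1129, 1142 and 1039 CPM in control cells and 813.3, 794.5 and 784.4 CPM in knockdown cells. Control groups overlapped, and every knockdown library lay below every control library. The knockdown lowered it, with log2 fold changes of -0.30 ± 0.04 without and -0.47 ± 0.04 with IFNγ (adjusted p = 5.13e-06 and 1.23e-08). IFNγ lowered it, with a log2 fold change of -0.15 ± 0.04 in knockdown cells (adjusted p = 0.00484), and the difference in control cells, 0.02 ± 0.04, did not pass (adjusted p = 0.69).

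Slc6a15, a carrier of branched-chain amino acids and proline, fell in all 4 comparisons, from 31.0 ± 1.68 CPM in shRFP to 23.5 ± 3.15 in shSdc1 and from 22.4 ± 0.42 to 17.2 ± 1.71 with IFNγ. Its changes lay between -0.47 and -0.38 (largest adjusted p = 0.0034). Slc6a17, a vesicular neutral amino acid carrier of neurons, did so too, from 125.5 ± 2.16 CPM in shRFP to 92.3 ± 3.19 in shSdc1 with IFNγ. Its changes lay between -0.25 and -0.19 (largest adjusted p = 0.00775). The creatine transporter Slc6a8 measured 51.3 to 74.1 CPM and passed in no comparison, with knockdown differences of 0.15 ± 0.06 and 0.17 ± 0.06 (adjusted p = 0.0879 and 0.0521). The second of these passed in 6 alternatives, 2 of them without shRFP with IFNγ replicate 1 or 2 (lowest adjusted p = 0.0227). Slc6a7 stayed at or below 1.00 CPM and passed in no comparison.

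The SLC36 carriers and the SLC43 facilitators changed little. Slc36a1, an exporter at the lysosome, fell by 0.22 ± 0.07 with the knockdown, from 42.1 ± 1.65 to 36.2 ± 1.91 CPM (adjusted p = 0.0188). This call ended without shRFP replicate 2 or 3 or shSdc1 replicate 1 (adjusted p = 0.056 to 0.0985). Slc36a4 fell by 0.22 ± 0.06 with IFNγ in control cells, from 43.9 ± 3.57 to 37.9 ± 0.28 CPM (adjusted p = 0.0134), a call that ended without shRFP replicate 1 (adjusted p = 0.0996). Slc43a2, a facilitator of large neutral amino acids, measured 12.4 ± 1.27 CPM in shRFP with IFNγ and 15.2 ± 1.07 in shSdc1 with IFNγ, a rise of 0.30 ± 0.10 (adjusted p = 0.0221). That call ended in 5 alternatives, 3 of them without shRFP with IFNγ replicate 2 or shSdc1 with IFNγ replicate 1 or 2 (adjusted p = 0.0657 to 0.14). Slc43a1, at 0.133 to 1.31 CPM, passed in no comparison.

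Members not tested carried almost no reads. Of the 34, 14 had 0 counts in every library, which include Slc38a5, Slc6a14 and Slc7a10, and 20 had a count. The largest count of a gene left out was 12, in Slc7a9, and the smallest maximum among genes tested was 17. Slc6a19, the neutral amino acid carrier of gut and kidney, had 0 counts in the 6 unstimulated libraries, and had 9 in shRFP with IFNγ and 5 in shSdc1 with IFNγ (at least 3.52-fold and 1.61-fold higher against a floor of 3 counts over the group). These floors cover counting error only.

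Whether the knockdown effect itself differed with IFNγ was tested by the interaction, (shSdc1 minus shRFP) under IFNγ minus (shSdc1 minus shRFP) without it. A positive value means a knockdown difference that was less negative, or more positive, under IFNγ than without it. Of the 29 genes 6 were positive and 1 negative, against 4.58% and 5.15% of all genes, and the median was 0.16 beside 0.02 over all genes. The positive genes were Slc6a9 (0.78 ± 0.12), Slc1a4 (0.57 ± 0.11), Slc1a5 (0.53 ± 0.09), Slc3a2 (0.36 ± 0.07), Slc7a5 (0.34 ± 0.07) and Slc38a7 (0.26 ± 0.07), with adjusted p from 4.66e-04 to 0.0233. All 6 were highest in shRFP and fell with either treatment alone. The call for Slc38a7 ended without shRFP replicate 1, shSdc1 replicate 1 or shSdc1 with IFNγ replicate 1 or 3 (adjusted p = 0.0527 to 0.0826). Slc6a6 was negative, at -0.17 ± 0.05 (adjusted p = 0.0468), its knockdown fall being larger under IFNγ. This call ended in 12 alternatives, 9 of which left out a library (all but replicate 3 of shRFP, shSdc1 and shRFP with IFNγ, adjusted p = 0.0534 to 0.11). Slc38a10 was next at -0.17 ± 0.05 (adjusted p = 0.0507) and passed in 8 alternatives. Slc38a3, at -0.74 ± 0.48, did not pass (adjusted p = 0.352).

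**Figure D3:**
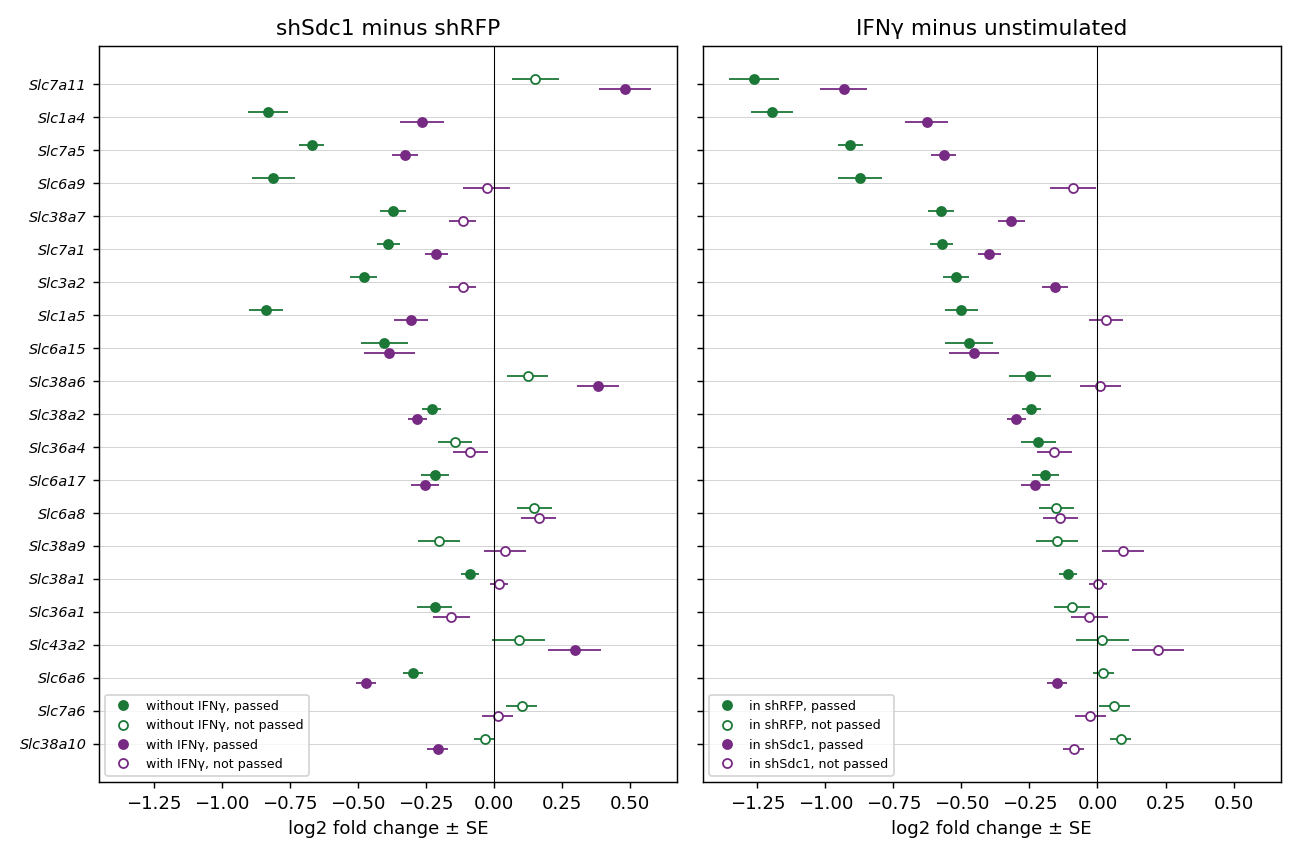
Log2 fold change ± SE (horizontal axis) of the 21 transporter genes whose highest group mean was 10 CPM or more, without Slc38a3, for the knockdown without and with IFNγ (left) and for IFNγ in control and knockdown cells (right). Filled points passed the test and open points did not; Slc7a11 and Slc1a4 lie farthest left for IFNγ in control cells, at -1.26 and -1.20.

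Targets and regulators of the amino acid response, which ATF4 drives, were set beside the carriers as a list of 28, of which 24 were tested. The list includes several synthesis enzymes, Atf4 itself and the kinases Eif2ak4 (GCN2) and Eif2ak3. It holds no transporter of the 7 families. In unstimulated cells the knockdown lowered 20 of the 24 and raised 1, Cbs, against 14.6% and 14.0% of all genes. IFNγ in control cells lowered 19 and raised 1, Atf3, against 14.4% and 17.2%. The medians were -0.70 and -0.93. With the other treatment already present, the knockdown lowered 8 and raised 4 (median -0.02), against 17.4% and 18.9% of all genes, so that the rises stood near the share of all genes. IFNγ then lowered 13 and raised 2 (median -0.18), against 13.0% and 17.5%. The interaction was positive for 21 and negative for 0 (median 0.75), against 4.58% and 5.15%. The same libraries gave the transporter values, and falls in ATF4 targets with the knockdown were known when the list was drawn up, so the list is no independent evidence.

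Atf4 measured 562.6 ± 12.2 CPM in shRFP, 397.5 ± 10.8 in shSdc1, 312.3 ± 12.9 in shRFP with IFNγ and 277.5 ± 10.2 in shSdc1 with IFNγ (SD, n = 3). Nupr1, a stress-induced chromatin protein, fell by 1.60 ± 0.09 with the knockdown (adjusted p = 1.72e-10) and by 1.79 ± 0.09 with IFNγ in control cells (adjusted p = 1.57e-11). Chac1, which degrades glutathione, and Trib3, a pseudokinase that restrains the response, fell by 1.88 ± 0.10 and 1.83 ± 0.08 with IFNγ in control cells (adjusted p = 2.80e-11 and 4.28e-13). Asparagine synthetase, Asns, had an interaction of 0.70 ± 0.07 (adjusted p = 7.47e-06) and Trib3 one of 1.28 ± 0.11 (adjusted p = 2.14e-06).

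**Figure D4:**
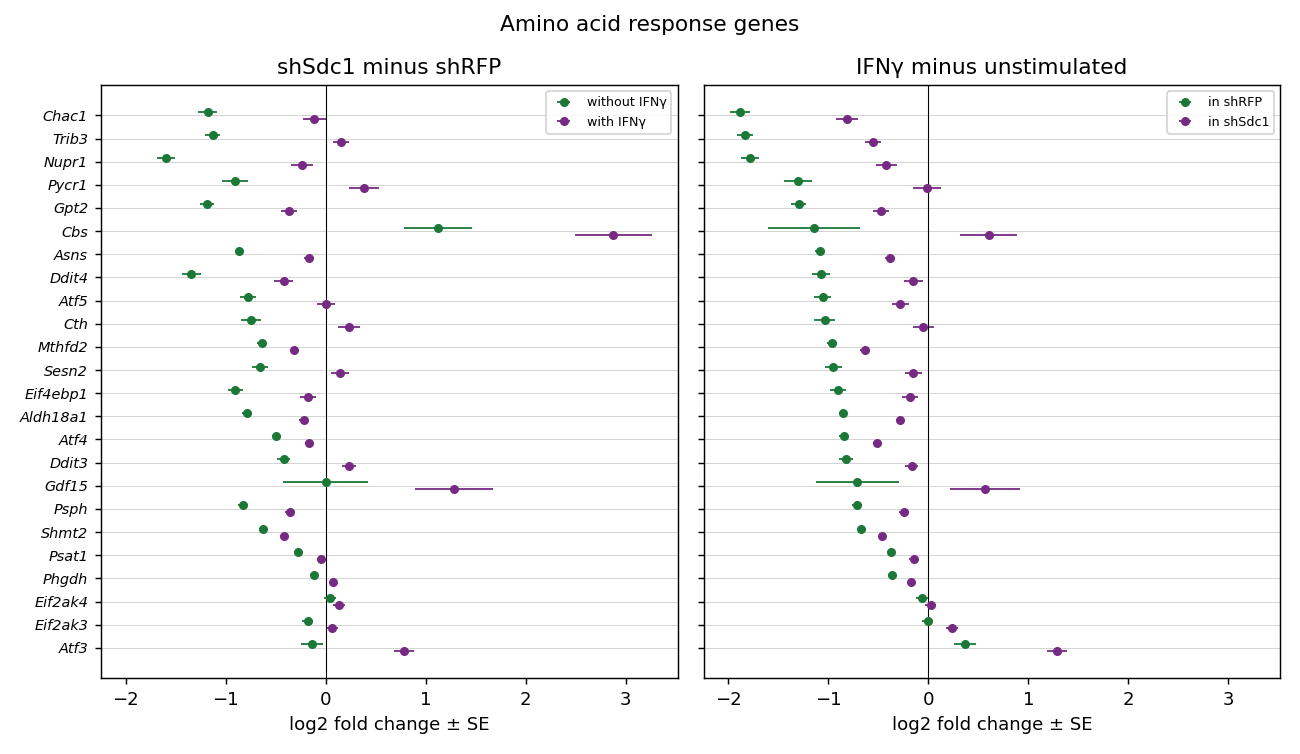
Log2 fold change ± SE (horizontal axis) of the 24 amino acid response genes tested, for the knockdown without and with IFNγ (left) and for IFNγ in control and knockdown cells (right). Most points for a single treatment lie left of 0, with medians of -0.70 and -0.93, and those measured on top of the other treatment lie nearer to 0, with medians of -0.02 and -0.18.

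Of 38 genes of amino acid sensing by mTORC1, the knockdown lowered 13 and raised 0 without IFNγ, against 14.6% and 14.0% of all genes, and lowered 16 and raised 2 with it, against 17.4% and 18.9%. Lamtor3, a subunit of the lysosomal Ragulator scaffold, fell by 1.06 ± 0.06 and 1.14 ± 0.06 (adjusted p = 1.40e-10 and 4.12e-11). Rragd, a Rag GTPase, fell by 0.76 ± 0.06 and 0.84 ± 0.07 (adjusted p = 3.36e-08 and 1.05e-08). With IFNγ 7 of the 38 fell and 2 rose in control cells, led by the leucine sensor Sesn2 (-0.95 ± 0.08, adjusted p = 3.37e-08), which the amino acid response list holds too, and 6 fell and 4 rose in knockdown cells. The falls in control cells stood near the 14.4% of all genes and those in knockdown cells near 13.0%. For rises the shares of all genes were larger than in this list, 17.2% in control cells and 17.5% in knockdown cells. The interaction was positive for 2 and negative for 3, near 4.58% and 5.15% of all genes. Mitf stands in this list and among the melanocyte markers, which the knockdown lowered without IFNγ.

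Of 32 tested enzymes that use the carried amino acids, 10 fell and 5 rose with the knockdown (14.6% and 14.0% of all genes) and 13 fell and 7 rose with it under IFNγ (17.4% and 18.9% of all genes), so that the rises stood near the shares of all genes. IFNγ lowered 10 and raised 7 in control cells (14.4% and 17.2% of all genes) and lowered 11 and raised 4 in knockdown cells (13.0% and 17.5%). The interaction was positive for 5 and negative for 3 (4.58% and 5.15% of all genes). Argininosuccinate synthase, Ass1, which makes arginine from citrulline and aspartate, rose by 1.96 ± 0.10 and 1.89 ± 0.10 with the knockdown without and with IFNγ (adjusted p = 4.96e-11 and 6.22e-11). Nos2, which turns arginine into nitric oxide, had 0 counts in both unstimulated groups, 2 in shRFP with IFNγ and 182 in shSdc1 with IFNγ. In knockdown cells that was at least 58.6-fold higher with IFNγ, against a floor of 3 counts over the group. Gpt2, Asns, Pycr1, Aldh18a1 and Shmt2 stand in this list and in the amino acid response list. Tyr stands in this list and among the melanocyte markers, which the knockdown lowered without IFNγ.

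Amino acid and peptide carriers of other families (16 of 24 tested) showed 4 falls and 2 rises with the knockdown and 6 and 2 under IFNγ, and 3 falls and 4 rises with IFNγ in control cells and 4 and 4 in knockdown cells. Over all genes the shares were 14.6% lower and 14.0% higher, 17.4% and 18.9%, 14.4% and 17.2%, and 13.0% and 17.5%, and with 16 genes the counts of this list are too few to read against them. Slc15a2, a peptide transporter, rose by 0.57 ± 0.10 and 1.11 ± 0.10 with IFNγ in control and knockdown cells (adjusted p = 1.40e-04 and 5.56e-08), with an interaction of 0.54 ± 0.14 (adjusted p = 0.0193), the one call of this list. Of 8 tested proteins that bind or regulate carriers, 1 fell and 2 rose with the knockdown, without and with IFNγ alike. The fall was Oca2, a melanosome channel (-1.97 ± 0.20 and -1.99 ± 0.20), and the rises were Arl6ip5 and the ubiquitin ligase Nedd4l. IFNγ lowered 1 and raised 4 of the 8 in control cells and lowered 2 and raised 4 in knockdown cells, and the interaction was positive for Arl6ip5 (0.23 ± 0.07, adjusted p = 0.0437) and negative for 0. Over all genes the interaction was positive for 4.58% and negative for 5.15%. Beside these and the shares of all genes given above, the counts among 8 genes are too few to read.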

How the data were processed

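The deposited table holds whole-number counts per gene for the 12 libraries, which the authors made from paired-end reads of mRNA libraries, per the labels' protocols. HISAT2 2.0.5, HTSeq, Trimmomatic and GRCm39 are named in the submitters' processing notes; their roles, the strand setting and the annotation were not stated in the sources used here. No label tells if a group's 3 libraries were separate cultures, so p-values measure only the spread between libraries, which may be technical. Symbols and exon lengths came from GENCODE M21 (GRCm38), which named 52083 of the 56093 entries and gave a length to all 63 members.

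Counts were scaled by TMM and kept by filterByExpr (minimum count 10, minimum total 15), which left 14089 of the 27472 genes with a count. Group means were fitted with the quasi-likelihood method of edgeR 4.0.16 (R 4.3.3) to the 12 libraries together (8 residual degrees of freedom, common biological coefficient of variation 0.0633). Tests were two-sided and called at an adjusted p under 0.05 with no fold minimum. The SE is the log2 fold change over the square root of F. RPKM is CPM per kilobase of merged exons. Promoter motifs were counted in Python 3.11.15 with pandas 2.3.3 and figures drawn with matplotlib 3.10.9. The fit was run on simulated counts with large changes in well-counted genes, as a check of the code. That does not bear on small changes or on genes with few counts.

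The members and lists were chosen with earlier results of these data known. Named in full were the 8 highest and 8 lowest changes past the test per comparison where a group mean reached 1 CPM, the 10 highest RPKM, 17 genes of central interest and up to 4 genes per other list. Alternatives were DESeq2 1.42.0 size factors and Wald test, upper-quartile scaling, limma-voom (limma 3.58.1), 2 other filters, a replicate block, the compared groups alone, leaving out ENSMUSG00000119584, a fold minimum and leaving out each library. Some values that met these rules are not reported here.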

Additional observations from a re-analysis of the deposited data

Results flagged for a closer look

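For 7 of the 29 transporter genes tested the effect of the knockdown differed with and without IFNγ by the interaction test of edgeR's quasi-likelihood model. Of these 6 were positive and 1 negative, against 4.58% and 5.15% of all genes. Slc6a9 had a log2 difference of 0.784, Slc1a4 of 0.569, Slc1a5 of 0.532, Slc3a2 of 0.364, Slc7a5 of 0.343 and Slc38a7 of 0.258, with the fall smaller once the other treatment was present. Slc6a6 had one of -0.171, with the fall larger. The call for Slc38a7 ended in 4 alternatives and that for Slc6a6 in 12.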

How the results depend on the processing

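The results were recomputed under 22 alternatives, 12 of which left out a library and 1 of which, a fold minimum, was used for counts only. Of 64 calls on single transporter genes, 49 held in each alternative run for them, 15 ended in at least 1, and 0 reversed. Of 81 results without a call, 16 passed in at least 1. Members higher with the knockdown came to 2 with DESeq2 size factors and 2 with only the groups compared (Slc38a3 with Slc7a7 or Slc6a8), and to 1 to 2 with a library left out. Under IFNγ they came to 3 with no filter on low counts and to 3 to 6 with a library left out (3 without shSdc1 with IFNγ replicate 1). Members higher with IFNγ in control cells came to 1 with the DESeq2 Wald test (Slc38a3), 3 with no filter and 0 to 1 with a library left out. In knockdown cells they came to 0 with size factors, upper-quartile scaling, the Wald test, the replicate block and without ENSMUSG00000119584, to 2 with no filter, and to 0 to 1 with a library left out. Members lower in the interaction came to 2 with size factors, the Wald test, limma-voom and no filter, to 0 with upper-quartile scaling, a filter of 1 CPM in 3 libraries and the replicate block, and to 0 to 2 with a library left out. With a library left out, members lower came to 11 to 14 and 8 to 11 with the knockdown without and with IFNγ, and to 12 to 17 and 9 to 13 with IFNγ in control and knockdown cells, and 5 to 7 were higher in the interaction. With a minimum log2 fold change of 1, members higher with the knockdown under IFNγ came to 1 and members lower with IFNγ in control cells to 2, and the others to 0, apart from the rise with the knockdown in unstimulated cells (1). The cause was not tested, save that fewer samples, another filter or a fold minimum belong to those alternatives' construction. Over all genes, upper-quartile scaling moved the calls for IFNγ from 2422 higher and 2024 lower to 1759 and 2811 in control cells, and from 2469 and 1826 to 2047 and 2495 in knockdown cells. Replicate numbers did not pair the libraries: deviations of same-numbered libraries correlated at -0.068 to 0.033. With the replicate block 13 members were lower and 1 higher with the knockdown, 9 and 5 under IFNγ, 15 and 0 with IFNγ in control cells, 11 and 0 in knockdown cells, and 6 were higher in the interaction. Depth limits statements on the 34 members not tested.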
